A study of Mus musculus with 14 samples.

Results

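For every gene, the effect of deletion of Yme1l in cultured neural stem and progenitor cells of adult mice was set against the effect of BMP4-induced quiescence, as the log2 difference (YKO minus WT) minus (Q minus P). This difference of differences is called the interaction here. A gene entered if its mean was at least 5 CPM (counts of a gene scaled to the library's size, after TMM scaling) in each of the 2 deposited tables. That gave 9139 genes of 13580 tested and of 53700 in the tables.

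All 14 libraries came from C57BL/6 mice and are poly-A selected RNA. Q cells (n = 4, replicates 1 to 4) were given BMP4, and P cells (n = 4, replicates 1, 2, 4 and 5) FGF and EGF. WT cells (n = 3) were kept in FGF and EGF and received an adeno-associated virus carrying GFP, and YKO cells (n = 3) were kept in the same growth factors and received one carrying Cre-GFP. The titles of the YKO libraries name a wild-type mouse, while the series design names the Yme1l knockout. No group without the knockout received Cre, so an effect of Cre itself cannot be told apart from that of the knockout. No promoter for Cre, no age and no culture or animal of origin was given in the sources used here. Every p-value below thus reflects only how far these libraries scatter, and that scatter may be technical.

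YME1L, an ATP-driven protease anchored in the inner membrane of mitochondria, degrades short-lived and damaged proteins and helps to set which lipid carriers, import subunits and fusion factors a mitochondrion holds. Neural stem cells of the adult brain rest in a quiescent state, which BMP signalling maintains in culture, and enter the cell cycle under FGF and EGF. Quiescent and cycling stem cells are known to differ in lipid metabolism, in ribosome production and in how much they rely on mitochondrial fuels.

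The target gene was read first. Yme1l1 (ENSMUSG00000026775, chromosome 2, 23046381 to 23089272) stood at 139, 127 and 123 CPM in WT replicates 1 to 3 and at 25.9, 25.7 and 22.5 CPM in YKO replicates 1 to 3. It stood at 3.84, 3.04, 4.68 and 2.16 CPM in the P libraries and at 4.91, 10.8, 3.93 and 4.89 CPM in the Q libraries. All YKO libraries lay below all WT libraries (knockout effect -2.39 (SE 0.19), adjusted p = 4.33e-07, edgeR quasi-likelihood test), and the gene's low level in the first table kept it out of the 9139 genes.

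The library totals ran from 6475092 counts (Q replicate 3) to 10320727 (WT replicate 3). Q replicate 2 had the steepest trend with GC content of the Q libraries. It was -0.372 on the log2 scale per 10 percentage points of GC, against -0.0689 to 0.0140 in the others. YKO replicate 3 lay at 31.05 on the first principal component of its table, against 16.04 and 14.42 in the other YKO libraries. Over the 9139 genes, GC content correlated with the level difference between P and WT at 0.682 and with the interaction at 0.267, a description over genes that share libraries. For 1421 of the genes (15.5%) the P and WT means lay more than 4-fold apart, although both groups were grown in FGF and EGF. Each count of a gene list given below was also taken with the GC trend removed and without Q replicate 2 and YKO replicate 3, and is repeated where it moved by more than 1.5 times.

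Markers of stem cells were present in all groups. Sox2, a transcription factor of neural stem cells, averaged 105 ± 5.74 CPM in P, 93.7 ± 8.96 in Q, 134 ± 2.48 in WT and 129 ± 8.05 in YKO (SD). Among 16 markers of microglia and macrophages, 7 had no count in any library (C1qa, C1qb, C1qc, Cx3cr1, Fcrls, Ptprc and Tyrobp), and their sum was 34.7 to 71.1 CPM. Of 15 markers of vessels and fibroblasts, Cldn5, Dcn and Pdgfrb had no count, and none of the list reached the 5 CPM minimum. The 18 neuroblast and neuron markers summed to 84.3 to 150.8 CPM in the P and Q libraries and to 1301 to 1424 CPM in WT and YKO, with Dlx5, Dlx6 and Stmn2 at 0 counts. The 16 astrocyte markers summed to 6970.1 to 7194 CPM in P and 9522 to 9999.7 in Q, and to 3643 to 3698 in WT and 4162 to 4549.9 in YKO. Oligodendrocyte lineage markers (16 genes, Mog at 0 counts) summed to 3845 to 4259 CPM in P, 2851 to 3247 in Q, 2514 to 2643 in WT and 3039.6 to 3377 in YKO. The part of these cell types in the results was not tested.

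The knockout effect (YKO minus WT) differed from the quiescence effect (Q minus P) at 4277 of the 9139 genes. The interaction was higher at 2388 genes (26.1%) and lower at 1889 (20.7%), by edgeR's quasi-likelihood test with a Benjamini-Hochberg adjusted p under 0.05 over all 13580 genes tested. The knockout effect itself passed as higher at 1911 genes (20.9%) and as lower at 2507 (27.4%). The quiescence effect passed as higher at 3024 (33.1%) and as lower at 3591 (39.3%). Quiescence moved genes further, with a median absolute log2 effect of 0.437 against 0.248 for the knockout, and 1516 against 285 called genes that changed at least 2-fold. Because the interaction holds both effects, its size follows the larger of them by construction, so the genes were sorted by which effect passed.

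The split of the calls into higher and lower depends on scaling. Higher interactions made up 55.8% of the calls here, 73.6% with scaling by library size alone, 62.7% with TMM within each table, 42.8% with RLE size factors, 41.9% with DESeq2 and 50.3% with the GC trend removed. The median interaction moved from 0.03 to 0.18, 0.08, -0.07, -0.08 and 0.01 in the same order. Gene lists below are therefore read against the median of all genes, and none of the 4277 calls changed sign under these scalings. With the GC trend removed 32 did.

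The genes fell into classes by the calls. In 1731 genes (18.9%) both effects passed with the same sign and the interaction did not. In 1251 (13.7%) both passed with the same sign and the knockout effect was the smaller one, which is called short of quiescence here. In 1875 genes (20.5%) the quiescence effect and the interaction passed and the knockout effect did not. The departures that the knockout made itself were fewer: 542 genes (5.93%) moved in opposite directions, 418 (4.57%) passed for the knockout and the interaction and not for quiescence, and 121 (1.32%) moved further in the knockout than in quiescence. These last groups were sensitive to the settings: of the 418, 164 kept the class with the GC trend removed, 196 with RLE size factors and 283 without YKO replicate 3, while of the 542 opposite genes 417, 415 and 408 did. In bulk RNA, fewer cells of a type and less RNA per cell cannot be told apart.

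**Figure D1:**
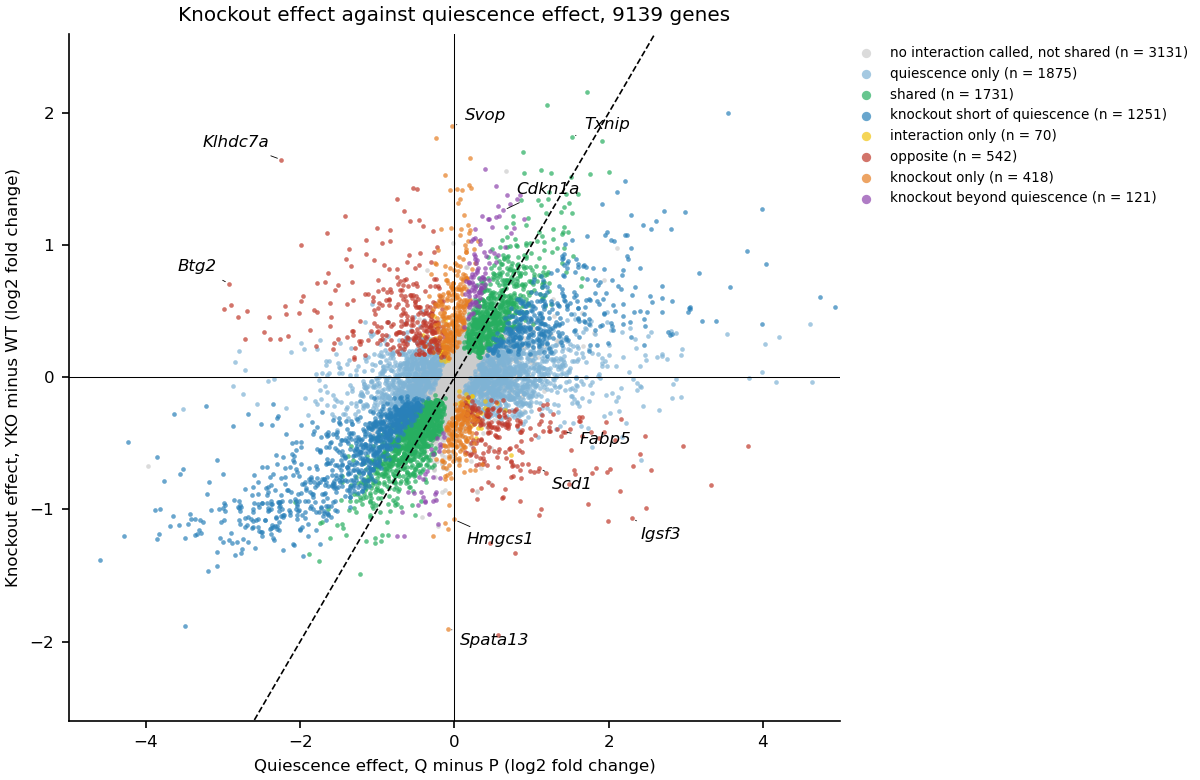
Knockout effect (vertical axis, YKO minus WT) against quiescence effect (horizontal axis, Q minus P), both as log2 fold changes, for the 9139 genes; 9 genes lie outside the axes. Each point is a gene coloured by its class and the dashed line marks equal effects: red points, upper left and lower right, are the 542 genes that moved in opposite directions, and orange points along the vertical axis are the 418 called for the knockout and not for quiescence.

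Genes that rose in the knockout and fell in quiescence numbered 314, with a median knockout effect of 0.41 and a median quiescence effect of -0.56. By the smaller of the 2 absolute effects, the leading ones included Klhdc7a, Ggt5, Jade2, Clic5, Ccbe1, Sorcs2 and Sod3. Klhdc7a, which encodes a kelch-domain protein, stood at 14.4, 12.2, 11.2 and 10.8 CPM in the P libraries and 2.95, 2.84, 2.46 and 1.96 in the Q libraries. In the other table it stood at 17.7, 18.5 and 20.0 CPM in WT and 48, 48.7 and 79.6 in YKO. Neither pair of groups overlapped: all Q libraries were below all P libraries, and all YKO libraries above all WT libraries, with YKO replicate 3 the highest. The knockout effect was 1.65 (SE 0.17), the quiescence effect -2.24 (SE 0.25) and the interaction 3.89 (SE 0.29) (adjusted p = 7.67e-09).

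Sorcs2, a sortilin-family receptor that binds neurotrophin precursors, stood at 440.4, 439, 457 and 415 CPM in P, 174, 155, 178 and 173 in Q, 216, 214 and 214 in WT and 412, 408 and 442 in YKO. Q lay below P and YKO above WT, with no overlap within either table. The interaction was 2.34 (SE 0.08) (adjusted p = 4.11e-15). Sod3, the extracellular superoxide dismutase, moved by similar amounts in both directions (knockout 1.02, quiescence -0.94). Ccbe1, a secreted factor needed for lymphatic vessels (1.002 and -1.99), Ggt5, which cleaves glutathione conjugates (1.22 and -1.42), Jade2, a scaffold of a histone acetylation complex (1.09 and -1.65), and Clic5, a chloride intracellular channel (1.13 and -1.01), had the same pattern. Clic5 and Ccbe1 are among the genes whose levels differ widely between the tables: Clic5 averaged 9.7 ± 2.76 CPM in P and 262 ± 18.8 in WT.

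The 228 genes of the reverse pattern, lower in the knockout and higher in quiescence, had a median knockout effect of -0.39 and a median quiescence effect of 0.57. Slc35f1, Igsf3, Abcg2, Lrp8, Nr2c2ap, Fam167a, Prune2 and Aldoc led them. Igsf3, an immunoglobulin-superfamily membrane protein, stood at 21.9, 26, 20.9 and 27.4 CPM in P and 119, 112, 127 and 117 in Q. Its WT libraries held 15.1, 14.4 and 14.7 CPM and its YKO libraries 6.42, 8.87 and 5.8. All Q libraries lay far above P and all YKO libraries below WT. Its interaction was -3.37 (SE 0.17) (adjusted p = 2.78e-12).

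Lrp8, a receptor for reelin and apolipoprotein E, stood at 32, 34, 28 and 28.4 CPM in P, 59.8, 74, 67 and 65 in Q, 47.3, 46.6 and 48.3 in WT and 27, 25.1 and 19.2 in YKO. Again each treated group lay wholly on one side of its control, above it in quiescence and below it in the knockout (interaction -2.12 (SE 0.15), adjusted p = 2.88e-10). Abcg2, an efflux transporter found in stem cells, moved by -1.04 in the knockout and 1.10 in quiescence. Slc35f1 (-1.08 and 1.99), Nr2c2ap, which encodes a nuclear receptor partner (-0.99 and 2.48), Fam167a (-0.96 and 1.73) and Prune2 (-0.86 and 2.15) followed. Prune2 lost its opposite call without YKO replicate 3, where its knockout effect no longer passed. Aldoc, the brain form of aldolase and a marker of astrocytes and quiescent stem cells, averaged 1785 ± 43.8 CPM in P and 3225 ± 214 in Q, and 201 ± 12.1 in WT and 105 ± 4.62 in YKO, so both of its effects (-0.93 and 0.85) start from very different levels.

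**Figure D2:**
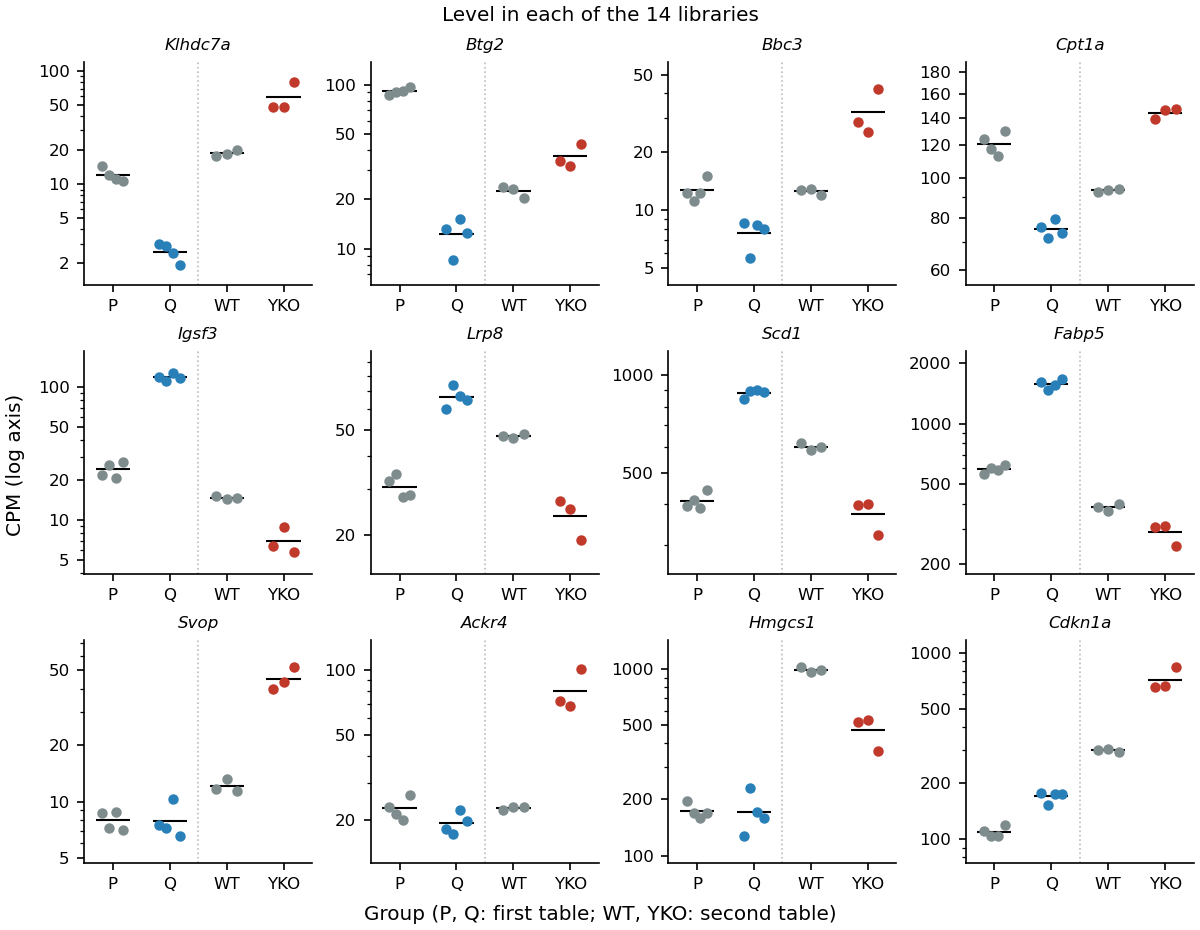
Level of 12 genes in each of the 14 libraries (CPM, log axis), with P and Q from the first table left of the dotted line and WT and YKO from the second right of it; points are libraries and bars are group means. In the top row YKO lies above WT and Q below P, in the next row (Igsf3, Lrp8, Scd1, Fabp5) the reverse holds, and in the bottom row Svop, Ackr4 and Hmgcs1 moved in the knockout while their P and Q libraries overlap, and Cdkn1a rose in both.

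Fatty acid synthesis and elongation genes moved in opposite directions. Of the list's 23 members, 11 were lower in the knockout and higher in quiescence, where 5.93% of all genes were opposite in either direction. In all, 15 of the 23 fell and 3 rose in the knockout (median -0.26), 16 rose and 1 fell in quiescence (median 0.34), and the interaction was lower at 15 and higher at 1 (median -0.72, against 0.03 over all genes). The medians kept these signs under each scaling tried and with any library left out.

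Scd1, the stearoyl-CoA desaturase that makes monounsaturated fatty acids, stood at 395, 412, 391 and 444 CPM in P and 845, 892, 899.8 and 885 in Q. In the second table it stood at 618, 588 and 602 CPM in WT and 397, 402 and 322 in YKO. Each Q library lay above every P library, and each YKO library lay below every WT library. Its effects were -0.69 (SE 0.07) in the knockout and 1.10 (SE 0.06) in quiescence, and its interaction -1.79 (SE 0.09) (adjusted p = 3.23e-12). Fabp5, a fatty acid carrier, stood at 562, 602, 588 and 626 CPM in P, 1616, 1472, 1547 and 1663 in Q, 385, 367 and 398 in WT and 308, 309.6 and 247 in YKO. Quiescence moved it further than the knockout, and the groups of each table stayed apart (1.41 (SE 0.06) and -0.41 (SE 0.07), interaction adjusted p = 4.94e-12).

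The other opposite members of the list cover several steps of the pathway. Acaca, which makes malonyl-CoA, had effects of -0.65 (knockout) and 0.32 (quiescence), and Acss2, which makes acetyl-CoA from acetate, -0.26 and 0.77. The desaturases Fads1 (-0.31 and 0.18), Fads2 (-0.35 and 0.35) and Scd2 (-0.24 and 0.22) did the same, as did the elongases Elovl4 (-0.35 and 0.86) and Elovl5 (-0.23 and 0.50) and the dehydratase Hacd3 (-0.29 and 0.44). Fabp7, the brain fatty acid carrier of radial glia, had the largest knockout fall of the 11 (-0.91, against 0.61 in quiescence). The knockout call of Elovl4 (adjusted p = 0.0371) was lost without WT replicate 1 or 2 or YKO replicate 1 or 3. Fasn, the fatty acid synthase itself, fell in the knockout (-0.58) and was not called in quiescence (0.14, adjusted p = 0.0808). Not every member followed: Acly, the citrate lyase at the head of the pathway, fell alike in both (-0.62 and -0.64), and Thrsp, a lipogenic regulator, rose further in the knockout (1.01 and 0.33).

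Sterol synthesis genes fell in both, and more of them in the knockout. Of 24 members of the cholesterol synthesis and uptake list, 22 fell in the knockout (median -0.93), while 17 fell and 2 rose in quiescence (median -0.37). The interaction was lower at 14 (median -0.40): 9 fell further in the knockout, against 1.32% of all genes in that class, 3 fell in the knockout alone by the calls, and 2 were opposite. Without Q replicate 2 and YKO replicate 3 the interaction was lower at 12 (median -0.25). The remaining members divide into 7 that fell alike, such as Fdft1, squalene synthase (-0.96 and -1.02), and 3 with no interaction called, Stard4, Ebp and Insig1.

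Hmgcs1, which makes HMG-CoA for the mevalonate pathway, stood at 1033, 967 and 988 CPM in WT and 519, 533 and 365 in YKO. It stood at 197, 169.8, 158 and 169.7 CPM in P and 127, 231, 171 and 160.0 in Q. YKO lay wholly below WT, with YKO replicate 3 lowest, whereas the P and Q libraries overlapped, Q replicate 2 being the highest of the 8. The knockout effect was -1.08 (SE 0.19), the quiescence effect -0.01 (SE 0.17) (adjusted p = 0.98) and the interaction -1.07 (SE 0.26) (adjusted p = 0.00687). Idi1, the isopentenyl diphosphate isomerase, was alike (-1.15 in the knockout and -0.08 (SE 0.22) in quiescence, interaction adjusted p = 0.0111). Without Q replicate 2 and YKO replicate 3, and with the GC trend removed, the quiescence fall of Idi1 passed too. A quiescence effect that misses the test is not shown to be absent. Sc5d, which acts late in the pathway, was the other of this class (-0.63 and -0.01).

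Cyp51, the lanosterol demethylase, stood at 356, 333 and 336 CPM in WT, 191, 204 and 142 in YKO, 161, 165, 152 and 172 in P and 131, 149, 138 and 132 in Q. Q lay below P and YKO below WT without overlap, and the fall was larger in the knockout (-0.93 (SE 0.10)) than in quiescence (-0.24 (SE 0.09); interaction adjusted p = 0.000459). Its quiescence call was lost without Q replicate 1 or 4 or P replicate 2 or 5. Nsdhl, which removes carbons from the sterol ring (-0.93 and -0.28), and Srebf2, the transcription factor of the pathway (-0.42 and -0.15), were in the same class. The 2 opposite members were Tm7sf2, a sterol reductase (-0.72 and 1.18), and Pmvk, the phosphomevalonate kinase (-0.67 and 0.29).

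**Figure D3:**
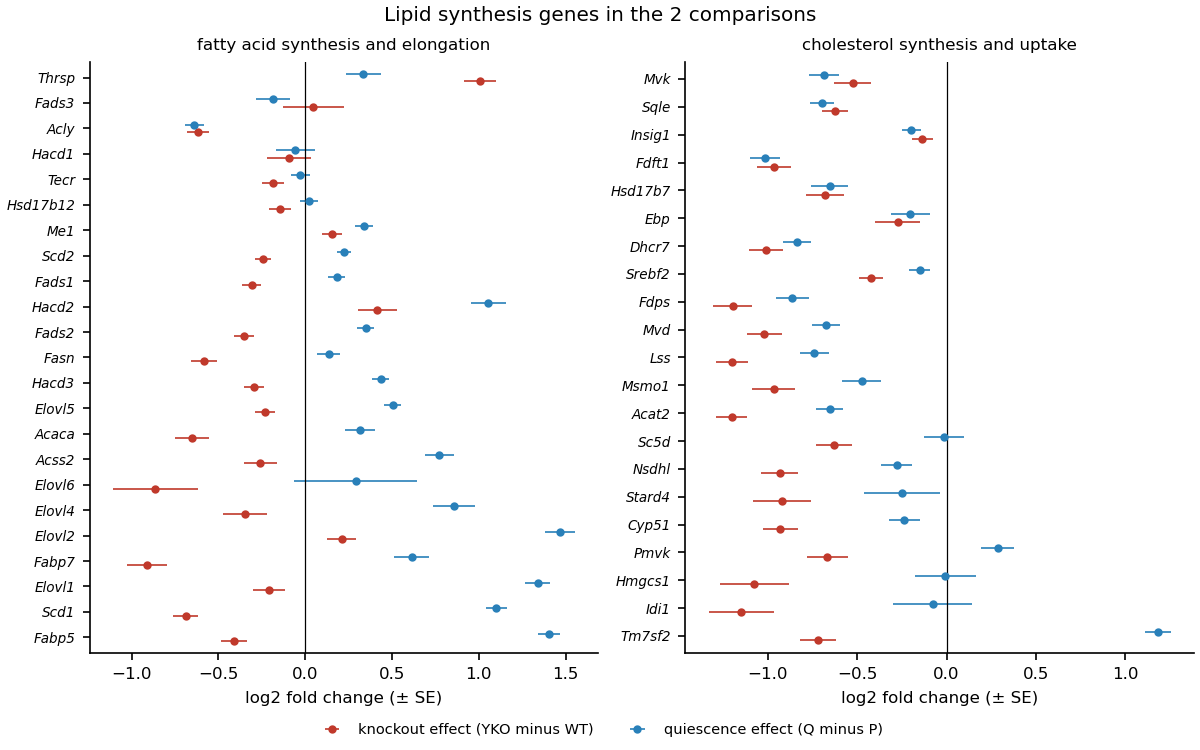
Knockout effect (red) and quiescence effect (blue) of 23 fatty acid and 21 of the 24 sterol genes, as log2 fold changes with standard errors, ordered by the interaction with the lowest at the bottom. On the left most red points lie below 0 and most blue points above it, and on the right nearly all points of both colours lie below 0, with red further down for the lower rows.

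More genes of sterol export and fatty acid oxidation rose than fell in each comparison. Of 11 LXR targets, 6 rose and 2 fell in the knockout, 9 rose in quiescence, and the interaction was lower at 7, which include Scd1 and Scd2, and higher at 1. The higher one was Apoe, the main lipoprotein of the brain, at 127, 123 and 131 CPM in WT and 253, 243 and 352 in YKO. In the first table it stood at 2179.9, 2135, 2273 and 2201 CPM in P and 2792, 2246, 2608 and 2325 in Q, far above the second table. YKO replicate 3 was the highest YKO library, and without it, or with the GC trend removed, the quiescence effect (0.18 (SE 0.10), adjusted p = 0.132) passed as well. Abca1, the cholesterol exporter, rose in both, less in the knockout (2.002) than in quiescence (3.55). The 33 genes of mitochondrial fatty acid oxidation held 13 that rose and 1 that fell in the knockout, against 20.9% and 27.4% of all genes. In quiescence 18 rose and 6 fell, against 33.1% and 39.3%. The interaction was higher at 6 and lower at 9 (10 and 7 by library size alone), against 26.1% and 20.7% of all genes. Of the 33, 6 were shared, near the 18.9% of all genes.

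Cpt1a, which admits long-chain fatty acids into mitochondria, was opposite. It stood at 124, 118, 113 and 129.7 CPM in P, 76.3, 71.7, 79.7 and 73.9 in Q, 92.5, 93.4 and 94.4 in WT and 139, 146 and 147 in YKO. Q lay wholly below P and YKO wholly above WT (0.62 (SE 0.06) and -0.69 (SE 0.06), interaction adjusted p = 1.26e-10). Acadl, the long-chain acyl-CoA dehydrogenase, was opposite too (0.29 and -0.94), and Cpt1c, the neuronal homologue, rose further in the knockout (0.95 and 0.38). The short- and branched-chain enzyme Acadsb (0.75 and 1.65) and both subunits of the trifunctional protein, Hadha (0.19 and 0.29) and Hadhb (0.39 and 0.34), rose in both with no interaction called.

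Targets of p53, the stress-activated transcription factor, departed upward. Of 22 members, 19 rose and 1 fell in the knockout (median 0.61), while 5 rose and 10 fell in quiescence (median -0.14). The interaction was higher at 18 (median 0.78), 7 of them opposite, 6 called in the knockout alone and 3 further in the knockout than in quiescence. The quiescence median changed sign to 0.01 with RLE size factors and to 0.01 with DESeq2, where 8 and 7 rose and 7 fell in each, and 8 rose with the GC trend removed. In all of these 19 rose in the knockout.

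Bbc3, the pro-apoptotic BH3-only protein PUMA, stood at 12.7, 12.8 and 12 CPM in WT and 28.4, 25.4 and 42 in YKO. It stood at 12.2, 11.1, 12.2 and 14.9 CPM in P and 8.51, 5.68, 8.36 and 7.97 in Q. The groups of each table did not overlap, and YKO replicate 3 was the highest YKO library (1.35 (SE 0.17) and -0.75 (SE 0.18), interaction adjusted p = 1.09e-06). Btg2, an antiproliferative gene, stood at 86.7, 90.0, 91.8 and 97.2 CPM in P, 13.1, 8.51, 15.1 and 12.4 in Q, 23.9, 23.2 and 20.3 in WT and 34.4, 31.8 and 43.8 in YKO. Most of its interaction came from the quiescence fall (-2.92 (SE 0.13), against 0.71 (SE 0.14) in the knockout). Pidd1, a death-domain adaptor (0.50 and -1.78), Plk2, a stress-induced kinase (0.26 and -1.23), Sesn2, a stress-induced inhibitor of mTORC1 (0.67 and -0.20), Ddit4, another such inhibitor (0.61 and -0.19), and Aen, a nuclease (0.22 and -0.66), were opposite as well. With the GC trend removed Sesn2 and Ddit4 no longer passed in quiescence.

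Cdkn1a, which encodes the cell cycle inhibitor p21, stood at 299.6, 305 and 294 CPM in WT, 652, 662 and 842 in YKO, 111, 104, 105 and 119 in P and 177, 153, 175 and 176 in Q. It rose in both without overlap, and further in the knockout (1.26 (SE 0.08)) than in quiescence (0.63 (SE 0.08); interaction adjusted p = 0.000194). Mdm2, the ubiquitin ligase of p53 (0.63 and -0.09), Bax, a pore-forming apoptosis protein (0.37 and -0.00), Ddb2, a DNA damage sensor (0.78 and -0.30), and Zmat3, an RNA-binding protein (0.60 and 0.00), passed in the knockout alone. Ccng1 (1.10 and 1.41) and Trp53inp1 (1.40 and 1.23) rose alike.

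Genes of the growth factor response had higher interactions too, with a different split into classes. Of 26 ERK targets and immediate early genes, 11 rose and 6 fell in the knockout, 5 rose and 16 fell in quiescence, and the interaction was higher at 20 (median 1.05). Among these 20, 5 were opposite, 2 were called in the knockout alone and 2 rose further in the knockout. Another 6 fell in both and less in the knockout, and 5 were called in quiescence alone. WT, YKO and P cells all had FGF and EGF, whereas the Q cells had BMP4. Spry4, a feedback inhibitor of receptor tyrosine kinase signalling, stood at 189, 198, 188 and 193 CPM in P, 111, 94.6, 118 and 105 in Q, 539.8, 544 and 515 in WT and 765, 768 and 883 in YKO. YKO lay above WT and Q below P, with no overlap (0.60 (SE 0.07) and -0.85 (SE 0.06), interaction adjusted p = 8.37e-11). The ERK phosphatases Dusp6 (0.28 and -1.12) and Dusp5 (0.41 and -1.04), the feedback inhibitor Spry2 (0.47 and -0.62) and the early gene Ier3 (0.28 and -1.23) were opposite. The knockout call of Dusp5 was lost without WT replicate 3 or YKO replicate 3, and that of Ier3 without any WT library or YKO replicate 1 or 3. Etv5 (0.73 and 0.15) and Dusp4 (1.04 and 0.33), both ERK-induced, rose further in the knockout. The early growth response factors Egr1 (-1.15 and -5.84) and Egr2 (-1.38 and -4.60) fell in both, and Egr3 had no count in any Q library.

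**Figure D4:**
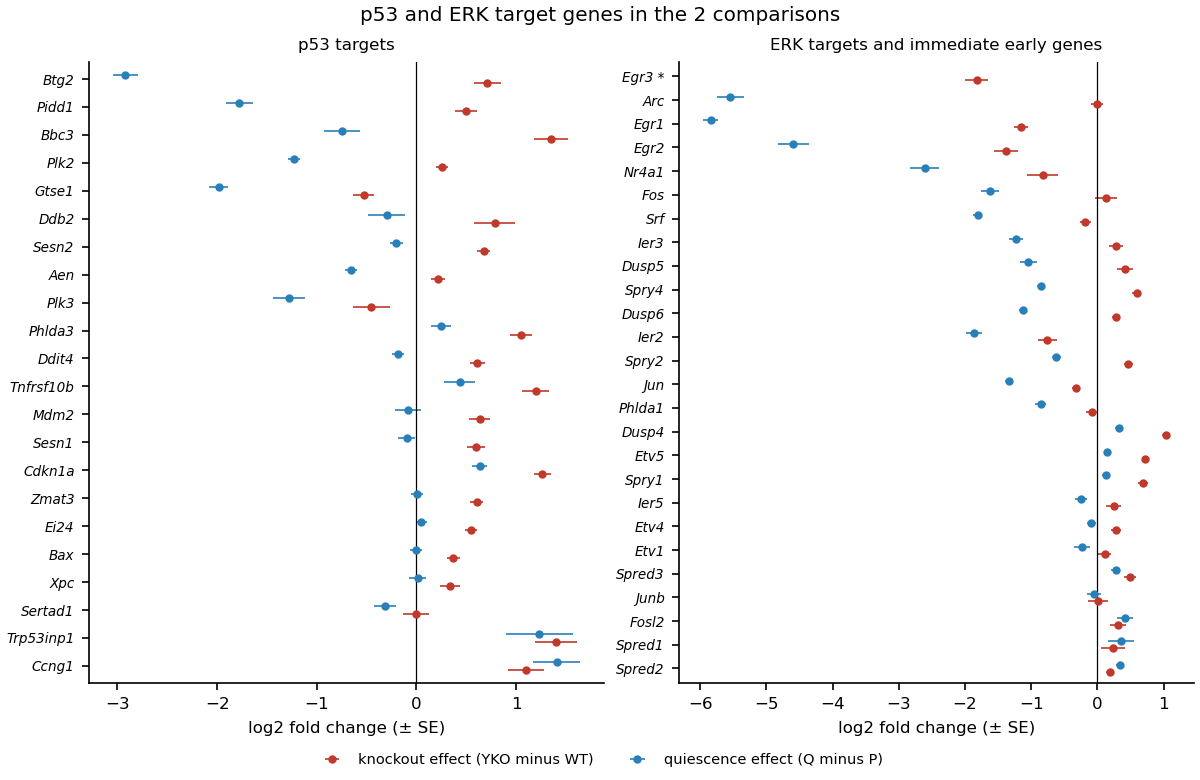
Knockout effect (red) and quiescence effect (blue) of the 22 p53 targets and the 26 ERK targets and immediate early genes, as log2 fold changes with standard errors, ordered by the interaction with the highest at the top. Red points lie to the right of blue points at most genes; Egr3, marked with an asterisk, had no count in the Q libraries and its blue point is not drawn.

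BMP target genes, which the added BMP4 acts on, rose in quiescence in 10 of 12 cases and fell in 2, and in the knockout 4 rose and 2 fell. The interaction was lower at 9 and higher at 1 (median -1.81). Without the 5 CPM minimum it was lower at 15. Id1, a BMP-induced inhibitor of differentiation, stood at 30.5, 38.4, 34.8 and 35.6 CPM in P, 398, 321, 379 and 366 in Q, 29.8, 29.8 and 31.7 in WT and 38.8, 40.4 and 43.5 in YKO. YKO lay wholly above WT, and Q above P by a much wider margin (0.42 (SE 0.09), against 3.39 (SE 0.08)). Id2 followed it (0.52 and 3.05), and Hey1, a transcriptional repressor of the Notch and BMP pathways, was opposite (-0.44 and 2.47).

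Cell cycle genes fell in both and less in the knockout. Of 45 DNA replication genes, 44 fell in the knockout (median -0.99) and 42 in quiescence (median -2.28), and 38 had a higher interaction, all of them short of quiescence. Of 35 mitosis genes, 34 fell in the knockout (median -1.07) and 35 in quiescence (median -2.31), and 28 were short of quiescence. Mcm6, a subunit of the replicative helicase, had log2 effects of -3.88 in quiescence and -1.002 in the knockout. Cdc6, the helicase loader, showed -1.20 and -4.28, and Aurkb, a mitotic kinase, -1.22 and -3.04. Pttg1, which encodes securin, an inhibitor of sister chromatid separation, was the one opposite gene of the mitosis list. It stood at 54.7, 59.7, 56.2 and 58.7 CPM in P, 15.7, 14.9, 16.2 and 10.3 in Q, 19.7, 19.2 and 17.7 in WT and 24.6, 27.3 and 27.5 in YKO. It fell in quiescence and rose in the knockout without overlap (-2.01 (SE 0.10) and 0.49 (SE 0.12), interaction adjusted p = 7.5e-11). Cdc25b, a phosphatase that activates the mitotic kinase, fell further in the knockout (-0.73) than in quiescence (-0.38; interaction adjusted p = 0.0443), a class that held in 14 of 29 alternatives and was lost without any one of Q replicates 1 and 4, P replicates 1, 2 and 5, WT replicates 1 and 2 and YKO replicate 3.

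Ribosome genes moved the same way. All 80 cytosolic ribosomal protein genes fell in quiescence (median -0.58) and 79 in the knockout (median -0.33), and 49 had a higher interaction, 30 being shared. Under RLE size factors and DESeq2 the interaction was higher at 32 and 31. Rpl27a, of the large subunit, was among the 49 (-0.38 and -0.95). Nucleolar genes of ribosome production fell in 31 of 33 cases in the knockout and in 30 in quiescence, and the interaction was higher at 13 (21 by library size alone). Of 35 genes of purine and pyrimidine synthesis 28 fell in the knockout and 32 in quiescence, with 19 interactions higher and 3 lower.

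Fewer genes of the mitochondrial lists below had an interaction called. Among 77 nuclear genes of the respiratory chain and ATP synthase, the interaction passed at 13, 10 higher and 3 lower, against 26.1% and 20.7% of all genes. This split moved with scaling, to 36 higher by library size alone, to 4 higher and 11 lower with RLE size factors and to 11 lower with the GC trend removed. Without Q replicate 2 and YKO replicate 3 it was lower at 6. Among 76 mitochondrial ribosomal protein genes, which serve translation inside the organelle, 40 fell in the knockout and 59 in quiescence, and the interaction was higher at 15 and lower at 3 (8 higher with RLE size factors and 32 by library size alone). None of the 12 measured protein-coding genes of mitochondrial DNA had an interaction called by edgeR's quasi-likelihood test, with 0 at an unadjusted p under 0.05 and 0 by DESeq2 (1 was higher without P replicate 5). Their median interaction was -0.10, and it changed sign without Q replicate 2 (0.04, and also 0.04 with YKO replicate 3 left out as well), P replicate 2 (0.02) or P replicate 5 (0.0073), by library size alone (0.05) and with the GC trend removed (0.22). The missing calls do not show equal effects: the interaction of mt-Co3, for example, ran from -0.12 to 1.07 over the alternatives. Of 34 import genes, 17 fell in the knockout and 26 in quiescence, with 4 interactions higher and 1 lower (12 higher by library size alone, 7 higher and 3 lower with the GC trend removed). The direction turned with RLE size factors, to 1 higher and 3 lower (median -0.02, against 0.08), and with DESeq2, to 1 and 4. Of 31 genes of mitochondrial proteases and dynamics, 15 fell in the knockout, between 5 and 9 without any one of WT replicates 1 and 3 and YKO replicates 1 and 3, and the interaction was higher at 3 and lower at 4 (lower at 10 with RLE size factors, 8 with the GC trend removed and 7 without Q replicate 2). By library size alone the direction turned, to 9 higher and 2 lower (median 0.06, against -0.10). Afg3l2, a protease of the same family as Yme1l1 that faces the matrix, was the one opposite gene there (-0.26 and 0.16), but its class was lost without WT replicate 3 or YKO replicate 3, where the knockout effect did not pass, and without Q replicate 1 or 4 or P replicate 1 or 4, where the quiescence effect did not.

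Sugar and glutamine genes divided. For the lists of this paragraph, 5.93% of all genes were opposite, 20.7% had a lower interaction and 26.1% a higher one. Of 26 glycolysis and lactate genes 7 were opposite, 13 had a lower interaction and 4 a higher one (7 by library size alone). Gpi1, the glucose phosphate isomerase, stood at 1443, 1467, 1476 and 1436 CPM in P, 965, 826, 913 and 898 in Q, 589, 588 and 576 in WT and 748, 792 and 749 in YKO. Q lay below P and YKO above WT, with no overlap (0.38 (SE 0.05) and -0.69 (SE 0.05), interaction adjusted p = 1.32e-10). Ldhb, a lactate dehydrogenase subunit (0.75 and -0.24), and Pkm, the pyruvate kinase (0.58 and -0.18), went the same way (Ldhb was not called in quiescence with the GC trend removed), while Slc16a1, a lactate transporter (-0.40 and 1.24), Pgk1 (-0.32 and 0.35), Pgam1 (-0.21 and 0.14) and Aldoc went the other. Pcx, the pyruvate carboxylase that refills the tricarboxylic acid cycle, stood at 123, 123, 134 and 128 CPM in P, 305, 231, 274 and 268 in Q, 25.7, 31.3 and 29 in WT and 18.9, 18.1 and 15.6 in YKO. It rose in quiescence and fell in the knockout without overlap (1.08 (SE 0.07) and -0.71 (SE 0.11), interaction adjusted p = 9.41e-10). Me2, a mitochondrial malic enzyme (-0.86 and 0.23), moved as Pcx did, and Glul, glutamine synthetase, moved the other way (0.41 and -0.26). Me2 lost its quiescence call without any one of 7 libraries or with the GC trend removed. In all, 5 of the 26 genes of the cycle and of glutamine use were opposite, and the interaction was lower at 9 and higher at 4 (14 lower with RLE size factors, 10 higher and 7 lower by library size alone). In the knockout 8 of the 26 fell, near the 27.4% of all genes, and 4 without YKO replicate 3.

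**Figure D5:**
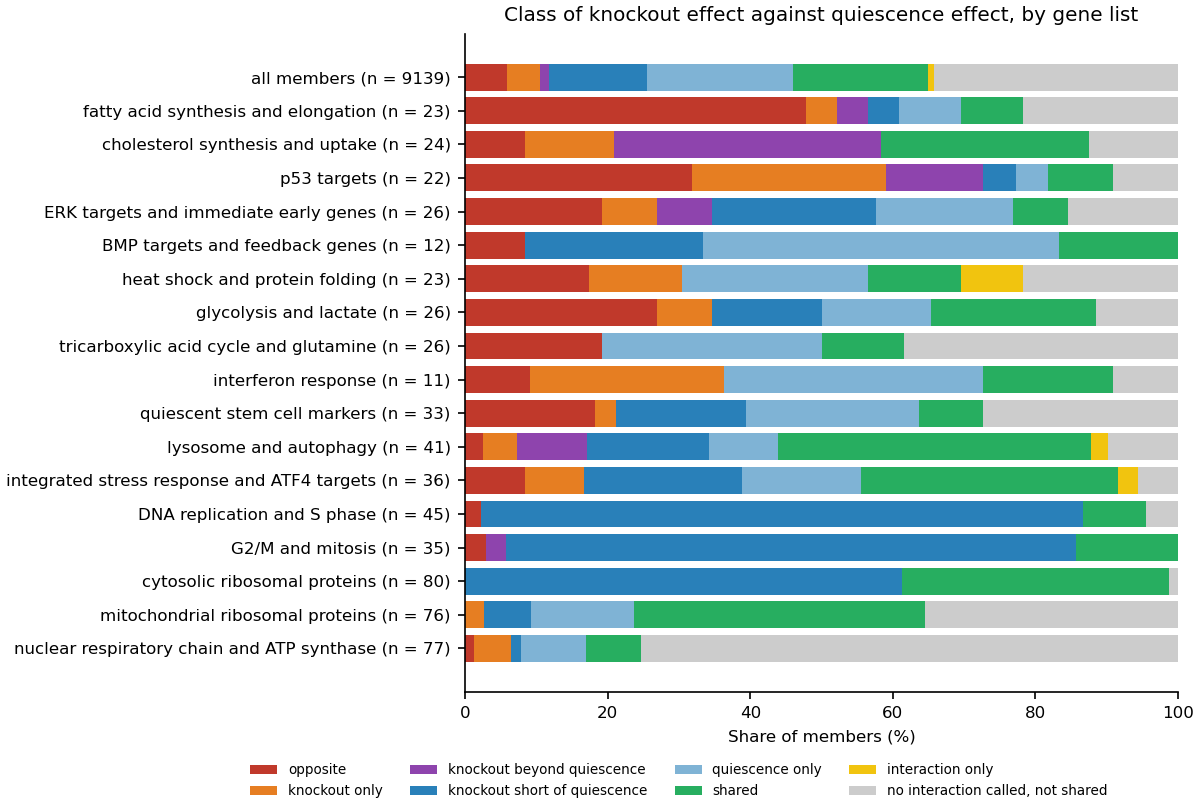
Share of each gene list (horizontal axis, percent of members) in each class, for all 9139 genes and 17 lists, with the number of members in brackets. Fatty acid synthesis holds 11 opposite genes of 23, p53 targets 7 of 22 with 9 more that passed in the knockout alone or further, and the cell cycle lists are nearly filled by genes short of quiescence.

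Protein folding genes had lower interactions. Of 23 members, 10 fell and 1 rose in the knockout, 12 rose and 3 fell in quiescence, and the interaction was lower at 14 and higher at 1 (median -0.65). Hspa5, the main chaperone of the endoplasmic reticulum, stood at 165, 157, 129.6 and 146 CPM in P, 163, 215, 188 and 185 in Q, 643, 622 and 641 in WT and 529.8, 529 and 427 in YKO. Its YKO libraries lay below WT, with YKO replicate 3 lowest, and 1 Q library fell among the P libraries (-0.36 (SE 0.10) and 0.33 (SE 0.09), interaction adjusted p = 0.000842). Calr, a calcium-binding chaperone (-0.26 and 0.56), Xbp1, a transcription factor of the unfolded protein response (-0.39 and 0.55), and Manf, a secreted stress protein (-0.30 and 0.30), were opposite too. The knockout call of Hspa5 was lost without YKO replicate 3.

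The promoters were read for letters of known motifs. RefSeq windows (build GRCm38.p6) matched 7360 of the 9139 genes, and the 250 bases before each start were searched on both strands. The endoplasmic reticulum stress element, CCAAT and CCACG with 9 bases between them, was found in 6 of 22 windows of the protein folding list (Calr, Canx, Creld2, Hsp90b1, Hspa5 and Pdia6). It was in 0.113% of all 32851 windows and in 0.137% of those of the 9139 genes. These 6 genes fall into different classes: Calr and Hspa5 were opposite, Pdia6 passed in the knockout alone (-0.49 and 0.08), Canx in quiescence alone (0.18 and 1.06), and Hsp90b1 and Creld2 in no class of departure. Of these, 3 are shown so that the element can be compared across classes. Capitals mark the element, read on the gene's strand in 5′ to 3′ direction, reversed in Calr.
Calr (chr8:84847050-84847118, gene on the minus strand): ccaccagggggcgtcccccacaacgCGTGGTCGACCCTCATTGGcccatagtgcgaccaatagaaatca
Pdia6 (chr12:17266466-17266534, gene on the plus strand): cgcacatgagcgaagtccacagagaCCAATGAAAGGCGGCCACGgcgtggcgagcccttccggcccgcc
Canx (chr11:50325775-50325843, gene on the minus strand): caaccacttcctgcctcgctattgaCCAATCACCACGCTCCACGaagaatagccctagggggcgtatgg
The cholesterol list held the sterol regulatory element TCACNCCAC in 1 of 20 windows, that of Hmgcs1, and the fatty acid list in 0 of 22. The shares were 1.05% of all windows and 0.969% of those of the 9139 genes. The stretch of Hmgcs1 is shown because this gene fell in the knockout alone by the calls.
Hmgcs1 (chr13:119690189-119690247, gene on the plus strand): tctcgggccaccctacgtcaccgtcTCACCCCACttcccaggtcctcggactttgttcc
No match says only that these letters are not in the window. The p53 response element, searched by its consensus with no spacer, was in 0 of 23 windows of the p53 list. It was in 0.00913% of all windows and in 0 of the windows of the 9139 genes. The E2F motif TTTNGCGC was in 5 of 48 windows of the replication list, against 1.13% of all windows and 2.08% of those of the 9139 genes.

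Lysosome and autophagy genes rose in both. Of 41 members, 32 rose in the knockout (median 0.44), 35 rose and 2 fell in quiescence (median 0.48), and 18 were shared. The interaction was higher at 9 and lower at 10 of the 41, shares near the 26.1% and 20.7% of all genes, with 5 higher under RLE size factors and 15 higher and 9 lower by library size alone. Ctsd, an aspartic protease of the lysosome (0.85 and 0.81), and Lamp1, a lysosomal membrane protein (0.62 and 0.48), rose alike. Ctsf, a cysteine protease, rose further in the knockout (1.21 and 0.54), as did Naglu, which degrades heparan sulfate (0.72 and 0.19), whereas Atp6v1a, a subunit of the proton pump, rose less (0.37 and 1.07). The quiescence call of Naglu was lost without WT replicate 1 or any one of 5 libraries of the first table. The E-box CACGTG was in 12 of 36 windows of the list against 6.02% of all windows. Stretches of 2 genes that rose alike (Gaa, Glb1), 1 that rose further in the knockout (Ctsf) and 1 that rose less (Atp6v1a) are shown with the E-box in capitals.
Gaa (chr11:119267798-119267853, gene on the plus strand): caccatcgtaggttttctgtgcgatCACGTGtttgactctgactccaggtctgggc
Glb1 (chr9:114401005-114401060, gene on the plus strand): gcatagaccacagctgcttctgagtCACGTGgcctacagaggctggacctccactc
Ctsf (chr19:4855061-4855116, gene on the plus strand): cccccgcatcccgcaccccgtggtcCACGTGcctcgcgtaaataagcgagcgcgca
Atp6v1a (chr16:44139360-44139415, gene on the minus strand): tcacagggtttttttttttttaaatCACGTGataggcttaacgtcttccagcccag

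Genes called in the knockout and not in quiescence were led upward by Svop, Ackr4, Celf5, H1f2, Dcxr and Selenop among those with an absolute quiescence effect under 0.25. Svop, a transporter-like protein of synaptic vesicles, stood at 11.7, 13.2 and 11.4 CPM in WT and 39.9, 43.5 and 52.2 in YKO. It stood at 8.72, 7.27, 8.82 and 7.05 CPM in P and 7.53, 7.26, 10.3 and 6.57 in Q. YKO was clear of WT while P and Q overlapped (1.90 (SE 0.13) and -0.03 (SE 0.16), interaction adjusted p = 2.49e-07). Ackr4, a scavenging chemokine receptor, showed 22.4, 23.1 and 23.2 CPM in WT, 72.3, 67.9 and 101 in YKO, 23.1, 21.5, 20.2 and 26.2 in P and 18.2, 17.4, 22.3 and 19.8 in Q. Here too only the knockout groups were apart (1.81 (SE 0.13) and -0.23 (SE 0.13)). Selenop, which carries selenium between cells (1.43 and 0.21), passed in quiescence as well without YKO replicate 2 or 3, and was then further in the knockout. Celf5, an RNA-binding protein (1.66 and 0.21), and Dcxr, a sugar reductase (1.46 and 0.18), followed, and the quiescence effect of Dcxr passed without Q replicate 2. H1f2, a linker histone (1.53 and -0.12), has close copies and its reads may be split among them.

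Downward, Spata13, Idi1, Vash1, Hmgcs1, Mad2l2 and Fxyd6 led. Spata13, a guanine nucleotide exchange factor, stood at 8.96, 8.85 and 8.39 CPM in WT and 2.57, 1.73 and 2.68 in YKO. In the first table it stood at 41.1, 39.9, 41.3 and 41.7 CPM in P and 39.1, 32.7, 42.6 and 40.5 in Q. The YKO libraries lay wholly below WT, and P and Q overlapped (-1.90 (SE 0.18) and -0.09 (SE 0.09), interaction adjusted p = 4.29e-07). Vash1, which removes tyrosine from tubulin (-1.10 and -0.12), Mad2l2, a subunit of translesion polymerase zeta (-0.97 and -0.07), and Fxyd6, a regulator of the sodium pump (-0.87 and -0.07), made up the rest. This group of falling genes counted 166, and 106 without YKO replicate 3.

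Beyond quiescence, the genes that rose most were Mgmt, a DNA repair enzyme (1.58 and 0.40), Fam189a2 (1.45 and 0.54), Npr2, the receptor of C-type natriuretic peptide (1.22 and 0.36), Cul9, a cullin that binds p53 (1.12 and 0.27), and Ptp4a3, a phosphatase (1.03 and 0.21). The quiescence call of Ptp4a3 was lost without any one of 6 libraries of the first table. Those that fell most included Tnfrsf12a, the receptor of TWEAK (-1.11 and -0.22; with the GC trend removed its quiescence effect did not pass), Xkr5 (-1.04 and -0.33), Cyp51 and Nsdhl. Xkr5 lost its interaction call without WT replicate 1 or YKO replicate 1 (adjusted p = 0.0616 and 0.0738). The 30 genes that fell beyond quiescence numbered 19 without WT replicate 1 and 46 without YKO replicate 2.

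In each comparison more markers of quiescent stem cells rose than fell, and more markers of activated cells fell than rose. Of 33 markers of quiescent stem cells, 12 rose and 4 fell in the knockout, against 20.9% and 27.4% of all genes. In quiescence 18 rose and 9 fell, against 33.1% and 39.3%. The interaction was higher at 8, near the 26.1% of all genes, and lower at 13, against 20.7%. Opposite genes numbered 6, against 5.93% of all genes, and Cd9, Cpe, Pla2g7 and Sox9 below are among them. The knockout count of higher genes was 21 with the GC trend removed, and the interaction was lower at 8 without YKO replicate 1, with 9 higher, and at 6 by library size alone, with 12 higher. Cd9, a tetraspanin, stood at 92.5, 103, 97.8 and 104 CPM in P, 408, 372, 414 and 419 in Q, 36.5, 37.9 and 40.7 in WT and 22.4, 29 and 19.9 in YKO. It rose in quiescence and fell in the knockout without overlap (2.02 (SE 0.08) and -0.69 (SE 0.10), interaction adjusted p = 7.93e-13). Cpe, a prohormone-processing enzyme (1.11 and -0.28), Pla2g7, a secreted phospholipase (1.11 and -0.84), and Sox9, a glial transcription factor (0.26 and -0.41), showed the reverse. Of 14 markers of activated cells, 2 rose (1 by library size alone) and 10 fell in the knockout (median -0.51). In quiescence 4 rose and 10 fell (median -1.15). Of the 14, 4 were opposite, among them Hmga2, a chromatin protein of young stem cells (-0.56 and 0.66). The knockout call of Hmga2 was lost without WT replicate 1 or 3 or any one of the YKO libraries.

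For the remaining lists the counts are read against the 26.1% of all genes with a higher and the 20.7% with a lower interaction. Of 36 genes of the integrated stress response and ATF4, which adjust amino acid supply under stress, 5 rose and 22 fell in the knockout, 9 rose and 21 fell in quiescence, and 13 were shared, with 10 interactions higher, a share near that of all genes, and 11 lower (14 and 8 by library size alone, 13 and 10 without YKO replicate 3). Of 33 NRF2 and antioxidant genes 11 rose and 9 fell in the knockout and 21 rose and 7 fell in quiescence, and the interaction was lower at 15 and higher at 3 (8 by library size alone). Of 11 interferon response genes, 6 rose in the knockout, and 3 without YKO replicate 3 or without WT replicate 2, while 3 rose and 4 fell in quiescence. Their interaction was higher at 7 and lower at 1 (median 0.61). Of 25 genes of folate one-carbon and serine metabolism, 18 fell in the knockout and 15 in quiescence, with 11 interactions higher and 5 lower. Among 32 matrix, proteoglycan and integrin genes, which anchor cells, the interaction was higher at 8, again near the share of all genes, and lower at 13 (13 and 12 by library size alone).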

How the data were processed

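A pair of RNA-seq tables with 14 libraries (4 Q, 4 P, 3 WT, 3 YKO) was used. The authors deposited expected counts per gene, quantified for each table on its own, with TPM values and counts scaled from TPM beside them. The authors' comparison tables, which hold a mean signal, log2 fold changes and p-values, were deposited too and were not used. The submitters' processing notes name R 4.0.3, DESeq2 1.30.1 and the build GRCm39, and the deposited sample sheets give reverse-stranded libraries of 1 run and lane. The deposited counts are labelled as merged Salmon output, and no aligner is given in the sources used here.

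The expected counts were rounded, joined by gene identifier, filtered with filterByExpr and scaled by TMM over all 14 libraries in edgeR 4.0.16 (R 4.3.3). A robust quasi-likelihood model of 4 groups gave the knockout effect, the quiescence effect and their difference, with Benjamini-Hochberg adjustment over 13580 genes and a threshold of 0.05. The standard error is the absolute log2 effect over the root of F. The tables share no control libraries, and no level was tested across them. CPM are counts per library size after TMM scaling. The script was tested on simulated data. DESeq2 1.42.0 and limma 3.58.1 (on log2(TPM + 1)) served as alternatives, beside other scalings, filters, thresholds, a replicate block and each library left out. Removing the GC trend and leaving out Q replicate 2 with YKO replicate 3 were chosen after seeing the data.

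The members and gene lists were chosen with earlier results of these data known. Genes were named by class: the 8 opposite genes in each direction with the largest smaller effect, 6 called in the knockout alone and 5 beyond quiescence in each direction, and up to 4 of each list by interaction, knockout departures first. Further list members are examples chosen after their values were seen. A few genes that this rule names are not reported here, though counts of lists and classes include them. Promoter windows come from RefSeq (GRCm38.p6), a different build from that of the counts, and were matched by symbol.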

Additional observations from a re-analysis of the deposited data

Results flagged for a closer look

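In the 30 genes whose values were compared between libraries, 3 values of Q replicate 2 stood apart from the other Q libraries by Dixon's test, which chance meets in about 1 of 20 groups. The test was run on the Q and on the P libraries of each gene, so chance alone would flag some values. The genes share libraries and all 3 values lie in Q replicate 2, so how many chance would give was not tested. Yme1l1 stood at 10.8 CPM in Q replicate 2 and at 4.91, 3.93 and 4.89 CPM in the other Q libraries. Tm7sf2, a sterol reductase, stood at 109 CPM there and at 131, 131 and 129 CPM in the others. Cdkn1a, which encodes p21, stood at 153 CPM there and at 177, 175 and 176 CPM in the others. The same library had the steepest trend with GC content of the Q libraries, a gap that did not pass Dixon's test. The part of that trend in these values was not tested.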

How the results depend on the processing

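Of 899 counts under alternative settings, 49 moved by more than 1.5 times. They cover all genes, the classes and some gene lists, mostly in 1 direction of the interaction. Counts of the other lists are not among the 899. Those of the respiratory chain, of mitochondrial import and of mitochondrial ribosomal proteins, for example, moved by more with scaling, as given above. With a 2-fold threshold on the interaction, 277 genes were higher and 237 lower. The classes then held, for the knockout higher and lower, 108 and 71 opposite genes, 5 and 1 called in the knockout alone, 0 and 0 beyond quiescence, 61 and 116 short of it, 75 and 77 called in quiescence alone and 1148 and 1778 shared. The lists then had interactions at 4 fatty acid genes (3 opposite), 1 cholesterol gene (0 beyond or in the knockout alone), 5 p53 targets (4 departing by knockout), 19 replication, 10 mitosis, 10 ERK, 0 ribosomal protein, 2 folding and 1 lysosome gene (lower). On log2(TPM + 1) with limma, 1223 interactions were lower, with 141 opposite, 101 knockout-only and 18 beyond-quiescence genes among those lower in the knockout and 246 short of quiescence among those higher. With counts scaled from TPM, 60 higher and 15 lower genes went beyond quiescence and 562 lower ones fell short. By library size alone, 481 opposite genes were higher and 103 knockout-only genes lower in the knockout. Genes higher in the knockout and short of quiescence numbered 616 with RLE size factors and 608 with the GC trend removed. Ribosomal protein genes with a higher interaction numbered 32 with RLE size factors and 31 with DESeq2. Without a minimum level, 15 BMP targets had a lower interaction. Leaving out 1 library each, knockout-only genes lower in the knockout ranged from 106 (without YKO replicate 3) to 210.0, and beyond-quiescence genes lower in the knockout from 19 (without WT replicate 1) to 46 (without YKO replicate 2). The cause of these moves was not tested.

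The replicate numbers did not pair the libraries: same-numbered deviations correlated at -0.288, -0.35 and 0.016 for Q and P, and at 0.0291, -0.0526 and -0.0545 for YKO and WT. A replicate block within each table gave 45 higher and 8 lower genes beyond quiescence, 266 higher genes short of it, 9 cholesterol and 31 ribosomal protein genes. Under it the interactions of Hmgcs1, Idi1 and Abca1 had adjusted p = 0.0563, 0.0909 and 0.054 by edgeR. The uncalled interaction of mt-Co3 changed sign to -0.12 under the block, and that of Map2 to 0.0222 without Q replicate 2 and YKO replicate 3. Precision is limited by library totals of 6475092 to 10320727 counts and by 3 or 4 libraries a group, and class calls near the threshold move with single libraries.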
